A study of Rattus norvegicus with 18 samples.

Results

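The Th17 programme is the set of genes by which CD4+ helper T cells make interleukin-17. Here 9 of its genes were followed by name among the 32882 genes of each rat table: the cytokines *Il17a*, *Il17f* and *Il22*, the receptors *Il23r* and *Ccr6*, and the transcription factors *Rora*, *Batf*, *Irf4* and *Ahr*. All 9 were found in all 3 tables, and none was chosen by a threshold on its values. The list was, however, chosen with earlier results of these data known. Th17 cells arise when naive T cells receive TGF-β with interleukin-6 or related signals through STAT3. BATF and IRF4 then bind DNA together and open the chromatin on which factors such as RORα, the product of *Rora*, act. Interleukin-23, received by IL-23R, maintains the cells, and CCR6, the receptor for the chemokine CCL20, guides them to tissues that include the central nervous system. Interleukin-17-producing T cells are known from experimental autoimmune encephalomyelitis (EAE), the animal model of multiple sclerosis to which these cells belong.

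The cells were CD4+ T-MBP cells, which recognize myelin basic protein and were cultured from an immunized Lewis rat. They were restimulated with antigen, transferred into Lewis rats and isolated on day 3 after transfer. The 18 libraries fall into 6 groups of 3, namely control and *Ets1*-KO cells from the spinal cord parenchyma, control and *Ets1*-KO cells from the spleen, and control and *Grk2*-KO cells from the spleen. Control cells had received a non-targeting guide and carried BFP, and their genotype is labelled wild type. The *Ets1*-KO and *Grk2*-KO cells carried GFP. Cas9 and the guide were introduced by electroporation, so that each KO group is a pool of edited cells and not a clone, and KO and control cells also differ in their fluorescent protein and retrovirus. The labels give all groups the same protocol of culture and restimulation and the same recipient strain, but not whether the *Ets1* and *Grk2* comparisons began from the same culture. GRK2 is a kinase that desensitizes G-protein-coupled receptors, and ETS1 is a transcription factor of lymphoid cells. The comparisons ask how the loss of ETS1 or GRK2 changed gene expression in these cells.

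In Rnor_6.0, the build of the tables, *Il17a* (ENSRNOG00000012467) lies on chromosome 9 from 26841298 to 26844786, and *Il17f* (ENSRNOG00000012509) lies on the same chromosome from 26885707 to 26897219 on the opposite strand. *Il22* (ENSRNOG00000007365) is on chromosome 7 from 61236036 to 61240502 and *Il23r* (ENSRNOG00000007544) on chromosome 4 from 98203957 to 98305173. *Ccr6* (ENSRNOG00000012964) is on chromosome 1 from 53065024 to 53087474. *Batf* (ENSRNOG00000008588) and *Ahr* (ENSRNOG00000004342) are both on chromosome 6, from 109562586 to 109584545 and from 54963989 to 55001464. *Rora* (ENSRNOG00000027145) spans 75516903 to 75607212 on chromosome 8 and *Irf4* (ENSRNOG00000061070) spans 34886738 to 34905117 on chromosome 17.

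The guides that define the KO and control groups are printed first, 5′ to 3′ and 20 bases each, since every comparison rests on them.
*Ets1* guide: tgctgctcggagttaacagt
*Grk2* guide: gatttgtcagaacctccgag
Non-targeting guide: gctgcatggggcgcgaatca

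The promoters of *Ccr6*, *Il17a* and *Batf* are shown because these members rose together in *Ets1*-KO cells of the parenchyma, as described later. They were taken from RefSeq, build GRCr8, which is not the build of the tables, and each runs from 250 bases before the transcription start to 50 bases after it, 5′ to 3′ on the strand of the gene. Of the 9 members 8 had an entry, all except *Il22*. Capitals mark the ETS motif GGAAGT, which reads ACTTCC on the other strand, and AGGTCA, the core element bound by RORα, which reads TGACCT on the other strand.
*Ccr6*, chr1:55046079-55046378, minus strand: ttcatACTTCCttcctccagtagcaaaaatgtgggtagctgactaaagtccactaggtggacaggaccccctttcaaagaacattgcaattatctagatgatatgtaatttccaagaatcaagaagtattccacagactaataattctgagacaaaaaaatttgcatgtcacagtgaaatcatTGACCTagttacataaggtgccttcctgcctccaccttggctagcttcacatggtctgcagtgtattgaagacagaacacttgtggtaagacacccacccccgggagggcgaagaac
*Il17a*, chr9:30640594-30640893, plus strand: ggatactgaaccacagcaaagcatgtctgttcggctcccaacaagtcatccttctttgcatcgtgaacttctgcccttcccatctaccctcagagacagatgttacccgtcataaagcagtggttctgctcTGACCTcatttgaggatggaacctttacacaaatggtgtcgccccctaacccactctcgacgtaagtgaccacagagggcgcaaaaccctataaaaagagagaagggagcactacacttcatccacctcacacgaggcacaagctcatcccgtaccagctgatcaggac
*Batf*, chr6:111084467-111084766, plus strand: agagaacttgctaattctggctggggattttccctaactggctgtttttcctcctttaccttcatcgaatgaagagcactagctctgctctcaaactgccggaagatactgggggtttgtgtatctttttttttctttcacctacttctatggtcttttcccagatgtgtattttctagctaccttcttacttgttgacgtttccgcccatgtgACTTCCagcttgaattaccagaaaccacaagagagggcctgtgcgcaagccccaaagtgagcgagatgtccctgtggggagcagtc
Searched on both strands, GGAAGT occurred in 2 of the 8 members (*Ccr6* and *Batf*) and in 22.6% of all 33469 rat promoters. AGGTCA occurred in 3 of the 8 (*Ccr6*, *Il17a* and *Il23r*) and in 16.2% of all promoters. In *Batf* the first base of the ETS match was 36 bases before the start, and in *Ccr6* it was 245 bases before the start. The RORα element began 119 bases before the start in *Il17a* and 67 bases before it in *Ccr6*. TGANTCA, the motif of AP-1 and BATF, was found in 0 of the 8 windows and in 7.33% of all promoters, and GCGTG, the core bound by the AHR, in 1 of the 8 (*Irf4*) and in 29.7% of all. These matches are descriptions of the letters and not binding sites.

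Between 898092 and 2248258 reads per library fell on genes. In the spleen the *Ets1*-KO libraries were deeper, with 1909862 to 2248258 reads, than their controls, with 898092 to 1213485. In the spleen, *Ets1*-KO library 3 stood apart from its replicates, with a chi-square per degree of freedom over genes of 8.95 and 9.23 against libraries 1 and 2, which gave 2.83 against each other; every other pair of replicates was between 1.48 and 4.597. Reads came from the 3′ ends of transcripts and need not show an edit elsewhere in a gene. The mean *Ets1* level was 2400 normalized counts in parenchymal control cells against 2551 in *Ets1*-KO cells, and 2077 against 2000 in the spleen, so its level checks nothing about the labels. *Grk2* was 158 ± 14.1 in control and 68.3 ± 17.4 in *Grk2*-KO cells (SD, n = 3; adjusted p = 1.76e-12 from limma). All 8 CD4 T cell markers were detected in every group. The 10 myeloid markers summed to 27.3 to 54.1 in control and 47.5 to 67.7 in *Ets1*-KO libraries of the parenchyma and to at most 11.6 in the spleen. B cell markers summed to at most 13.1 and neural markers to at most 13.8. Of the CD8 T and NK cell markers, *Klrd1* was detected in every group, and *Cd8b* and *Ncr1* were at 0 in all libraries. *Cd8a* was detected in each group of the *Ets1* comparisons and was at 0 in both groups of the *Grk2* comparison. The CD8 T and NK cell markers summed to 26.3 to 31.8 in control and 25.3 to 35.1 in *Ets1*-KO libraries of the parenchyma.

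Values are normalized counts, which are reads divided by the size factor of the library, and each of the 3 tables was scaled on its own. Genes were tested where the mean over the 6 libraries of a table was at least 10, which 6 of the 9 members met in every table. *Il17f*, *Il23r* and *Ahr* stayed below 10 in all tables. With 3 of the 9 members this low, the name of the list is no statement on the type of these cells, and the members are described one by one. A change is a difference of log2(normalized count + 1), KO minus control, and a fold is that change on a linear scale, which understates the change of low genes.

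In *Ets1*-KO cells of the parenchyma 4 of the 6 tested members rose, among them both cytokines that could be tested. *Ccr6* rose 2.64-fold, *Il22* 1.77-fold, *Il17a* 1.48-fold and *Batf* 1.37-fold, each in all 3 replicate pairs. *Irf4* and *Rora* did not pass the test. Over all 7002 genes tested, 5.23% were called and 2.27% were called and higher, against 4 of 6 members. Since the members were chosen with earlier results of these data known, this comparison is a description and not a test. The median log2 change of the 6 members was 0.51, and that of all tested genes was −0.03.

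**Figure D1:**
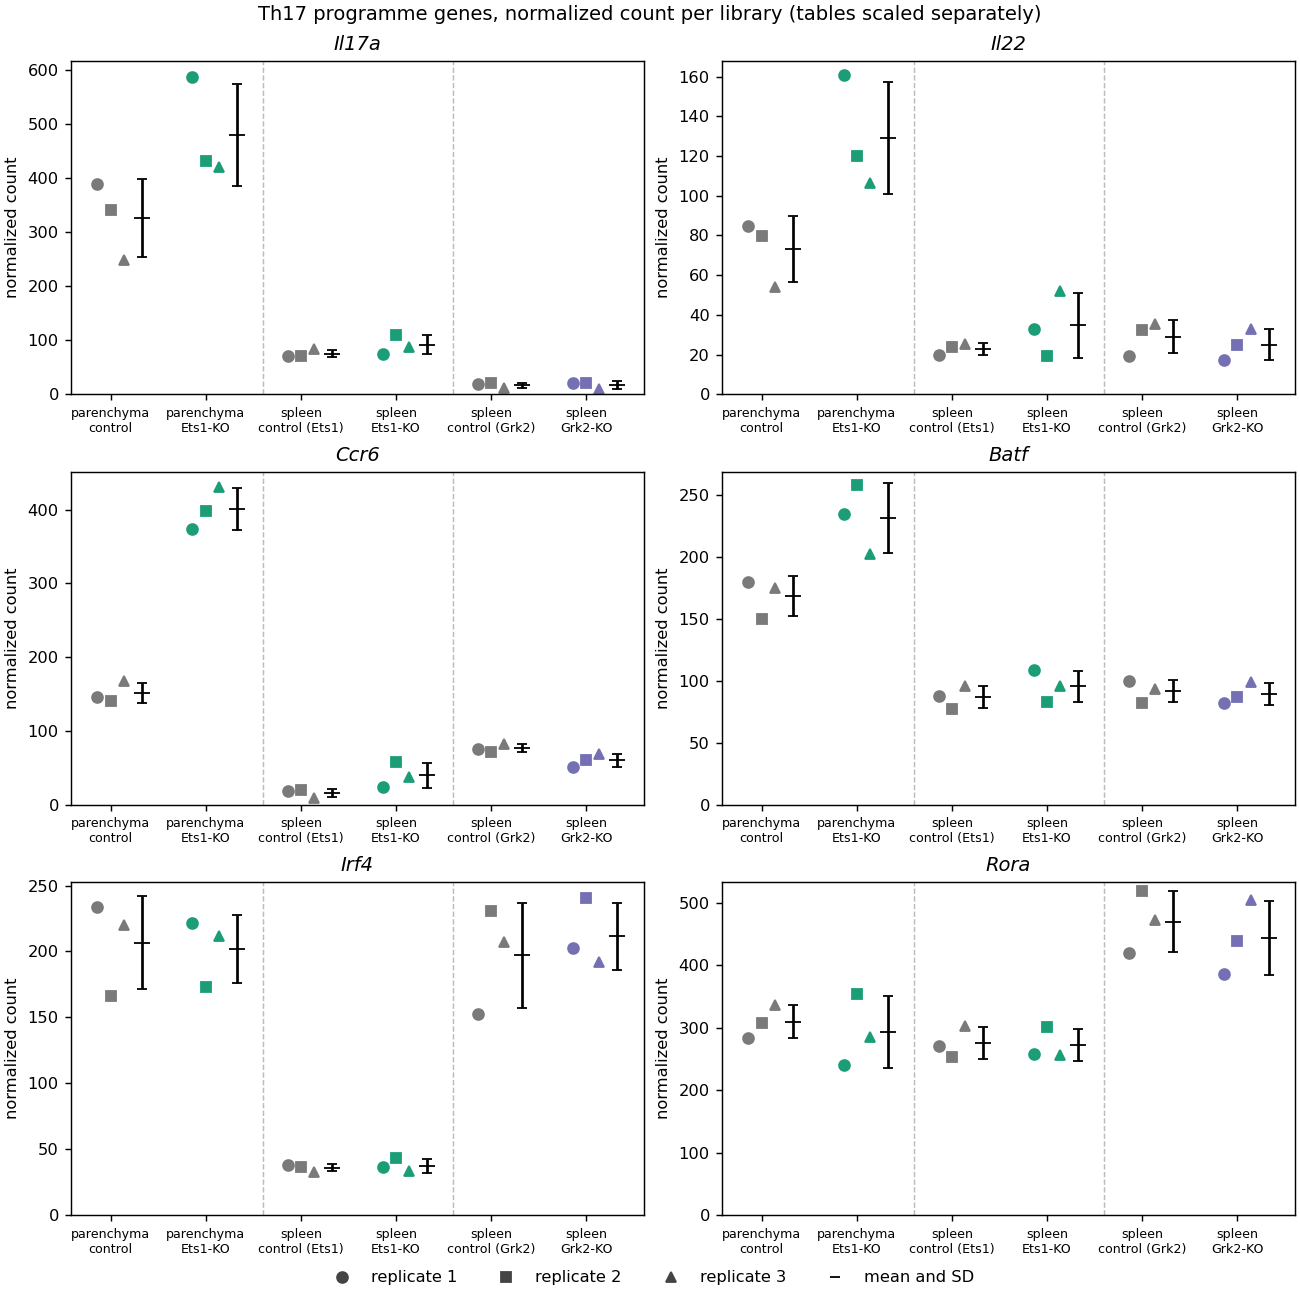
Normalized count (y axis, linear, from 0) of the 6 tested Th17 programme genes in each of the 18 libraries, by group (x axis), with the mean and SD of 3 libraries beside the points and the marker shape giving the replicate number. Dashed lines separate the 3 tables, which were scaled separately. In the parenchyma all *Ets1*-KO points of *Il17a*, *Il22*, *Ccr6* and *Batf* lie above all control points, and *Ccr6* shows the widest gap, from 167 to 374.

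*Il17a* encodes interleukin-17A, the signature cytokine of Th17 cells. Its normalized counts were 389.5, 340.4 and 249 in the control libraries 1 to 3 of the parenchyma and 587, 431 and 421 in the *Ets1*-KO libraries. The lowest KO library was above the highest control, and library 1 was the highest in both groups. The means were 326 ± 71.5 and 479 ± 93.5 (SD, n = 3), a log2 change of 0.56 (standard error 0.09; limma, adjusted p = 3.01e-07). Permuting the libraries exactly, two-sided, gave p = 0.1, which is the smallest p that 3 against 3 libraries allow and which also holds for *Il22*, *Ccr6* and *Batf*.

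*Il22* encodes interleukin-22, which acts on epithelial and other non-hematopoietic cells. It was at 85.0, 79.9 and 54.1 in control and at 161, 120.3 and 107 in *Ets1*-KO libraries, with no overlap. Its means were 73.0 ± 16.6 and 129 ± 28.2 (SD, n = 3), and its log2 change was 0.82 (standard error 0.15; limma, adjusted p = 3.75e-06).

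*Ccr6*, the receptor for CCL20, was at 147, 140.1 and 167 in control and at 374, 398 and 431 in *Ets1*-KO libraries. The spread within each group was small beside the gap between them. The 3 pairs differed by 1.34, 1.501 and 1.36 on the log2 scale. The means were 151 ± 14.1 and 401 ± 28.4 (SD, n = 3), and the log2 change was 1.40 (standard error 0.11; limma, adjusted p = 1.78e-36).

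*Batf* encodes an AP-1 factor that is required for Th17 differentiation. Its values were 179, 149.5 and 175 in control and 235, 258 and 202 in *Ets1*-KO libraries, which did not overlap. The log2 change was 0.46 (standard error 0.11; limma, adjusted p = 0.00269), and the pairs ranged from 0.20 to 0.78. Non-overlap of the groups was seen in 18.4% of all tested genes.

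*Irf4*, the partner of BATF, was at 234, 166 and 220.2 in control and at 221, 173 and 212 in *Ets1*-KO libraries, and the groups overlapped almost entirely. Its log2 change was −0.03 with a 95% interval from −0.25 to 0.19. *Rora* was at 284, 308 and 336 in control and at 239.6, 354 and 286 in *Ets1*-KO libraries. Its log2 change was −0.09 with a 95% interval from −0.29 to 0.10. Of the transcription factors that could be tested, *Batf* alone was called.

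Without the trend of variance on expression in the limma fit none of the 4 passed, with adjusted p values from 0.0986 for *Ccr6* to 0.368 for *Batf*. *Batf* also failed without replicate 2 (adjusted p = 0.376 from limma) and in DESeq2 (0.306). Without the replicate block all 4 were called, at adjusted p values of 0.00524 (*Il17a*), 0.00268 (*Il22*), 8.67e-12 (*Ccr6*) and 0.03 (*Batf*) from limma. The myeloid marker sums, whose median was 43.9 for control cells and 62.3 for *Ets1*-KO cells, moved with these members in the parenchyma, *Lyz2* being the most abundant and the only one of the 10 that could be tested, without a call. All cells had been sorted by fluorescent protein, and the part of these transcripts in the result was not tested. In bulk samples more cells with a transcript cannot be told apart from more RNA per cell.

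In the spleen, *Ccr6* was the only member called in *Ets1*-KO cells, at 2.38-fold, against 2.22% of all 6979 genes called and 1.02% called and higher. The other 5 tested members were not called. *Ccr6* was at 18.6, 19.4 and 9.40 in control and at 23.3, 57.7 and 38.1 in *Ets1*-KO libraries. The groups did not overlap, as in 16.9% of all tested genes, but the lowest KO library was only a little above the controls and the 3 pairs ranged from 0.31 to 1.91. The log2 change was 1.25 (standard error 0.32; limma, adjusted p = 0.0343; exact permutation p = 0.1). The control values rest on 6 to 18 reads per library and the KO values on 34 to 93.

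The call depended on the fit. Without the replicate block the adjusted p from limma was 0.0805, without each replicate in turn it was between 0.0997 and 0.195, and DESeq2 gave 0.378. edgeR gave 0.0117 with the block. Without replicate 3, whose *Ets1*-KO library stood apart and whose pair had the largest ratio, the log2 change of *Ccr6* was 0.92. The greater depth of the *Ets1*-KO libraries of the spleen also moves with this result, and its part was not tested.

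The cytokines of the spleen showed changes of the same sign that did not pass. *Il17a* was at 71.1, 71.0 and 83.0 in control and at 75.3, 110.4 and 88.0 in *Ets1*-KO libraries, which overlap, and its log2 change was 0.27 (95% interval −0.09 to 0.62). *Il22* was at 19.7, 23.7 and 25.1 in control and at 32.9, 19.2 and 51.8 in KO libraries. Here KO library 2 was the lowest of all 6 and KO library 3 the highest, and the log2 change was 0.48 (95% interval −0.12 to 1.08).

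Among the transcription factors of the spleen, *Batf* ranged from 77.4 to 95.6 in control and from 83.1 to 108 in *Ets1*-KO libraries, with a log2 change of 0.13. *Irf4* ranged from 32.9 to 38.3 in control and from 33.1 to 43.4 in KO libraries, with a log2 change of 0.06. *Rora* ranged from 253 to 302 and from 256 to 301, with a log2 change of −0.02. All 3 overlapped between the groups. The median log2 change over the 6 members was 0.20, against 0.00 for all tested genes.

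**Figure D2:**
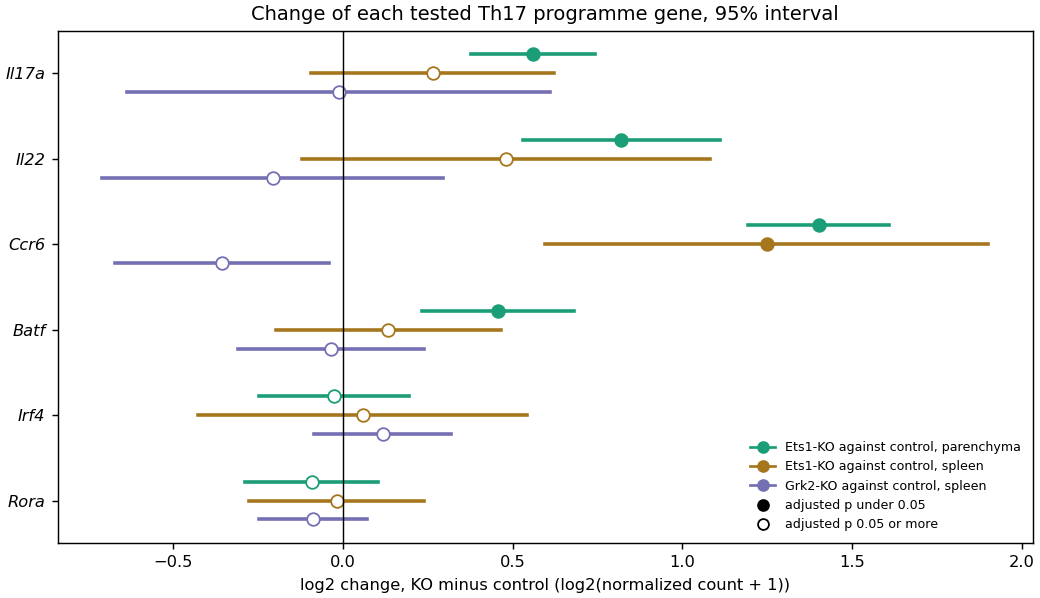
Log2 change, KO minus control, of log2(normalized count + 1) (x axis) for each tested Th17 programme gene (y axis) in the 3 comparisons, with the 95% interval of the limma fit as a line. Filled points had an adjusted p under 0.05: *Il17a*, *Il22*, *Ccr6* and *Batf* in the parenchyma and *Ccr6* in the spleen of the *Ets1* comparison, while all points of the *Grk2* comparison are open.

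In *Grk2*-KO cells of the spleen no member was called. Of the 6 tested, 0 passed with limma, edgeR and DESeq2 alike, and 1 (*Ccr6*) had an unadjusted p under 0.05 with limma. Over all 6985 genes 1.56% were called. The median log2 change of the members was −0.06, and that of all tested genes 0.02.

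*Ccr6* was at 75.9, 72.1 and 82.0 in control and at 51.5, 60.1 and 68.2 in *Grk2*-KO libraries, each KO library being below all controls, as in 12.2% of tested genes that did not overlap in either direction. The log2 change of −0.36 (95% interval −0.67 to −0.04) had an adjusted p of 0.383 from limma and so was not called. *Il22* was at 19.5, 32.1 and 35.4 in control and at 17.5, 24.9 and 32.7 in *Grk2*-KO libraries, with a log2 change of −0.21 (95% interval −0.71 to 0.30).

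*Il17a* was low in this table, at 18.4, 19.95 and 11.1 in control and 21.0, 20.7 and 9.10 in *Grk2*-KO libraries. Library 3 was the lowest of both groups. The log2 change was −0.01, with an interval from −0.64 to 0.61 that holds changes as large as that of *Il17a* in the parenchyma. *Batf* ranged from 82.0 to 99.7 in control and from 82.1 to 99.1 in KO libraries. *Irf4* ranged from 153 to 231 and from 192 to 240.2, and *Rora* from 419 to 518 and from 386 to 504. The log2 changes of these 3 transcription factors were −0.03, 0.12 and −0.09, and their groups overlapped.

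Whether the *Ets1*-KO effect differed between parenchyma and spleen was tested on the log2 ratio of each replicate pair within its table. No member passed: 0 of 6 were called with limma, 0 had an unadjusted p under 0.05 and edgeR called 0, beside 2.1% of all 6520 genes called. A call in the parenchyma and none in the spleen is therefore not shown to be a difference between the tissues. The difference, parenchyma minus spleen, was 0.30 for *Il17a* (95% interval −0.07 to 0.67), 0.34 for *Il22* (−0.28 to 0.96), 0.32 for *Batf* (−0.07 to 0.72) and 0.15 for *Ccr6* (−0.41 to 0.72). These intervals include 0 and also differences as large as the parenchymal changes of *Il17a* and *Batf* themselves. Single replicates moved these values: without replicate 2 the difference was 0.59 for *Il17a*, 0.07 for *Il22* and 0.14 for *Batf*, without replicate 3 it was 0.11 for *Il17a*, 0.54 for *Il22* and 0.50 for *Ccr6*, and without replicate 1 it was 0.19 for *Il17a* and −0.29 for *Ccr6*.

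In the spleen the effects of the 2 edits on *Ccr6* differed. The log2 change was 1.25 in *Ets1*-KO and −0.36 in *Grk2*-KO cells, a difference of 1.61 (standard error 0.34; limma, adjusted p = 0.00696). All 3 *Ets1* pairs were above 0, at 0.31, 1.53 and 1.91, and all 3 *Grk2* pairs below it, at −0.55, −0.26 and −0.26. Over all 6490 genes 1.94% were called in this comparison, and *Ccr6* was 1 of 6 members. The call was lost without replicate 2 (adjusted p = 0.171), without replicate 3 (0.154) and without the variance trend (0.217, all from limma). For the other 5 members the difference ranged from −0.06 for *Irf4* to 0.69 for *Il22*, whose 95% interval ran from −0.09 to 1.47.

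**Figure D3:**
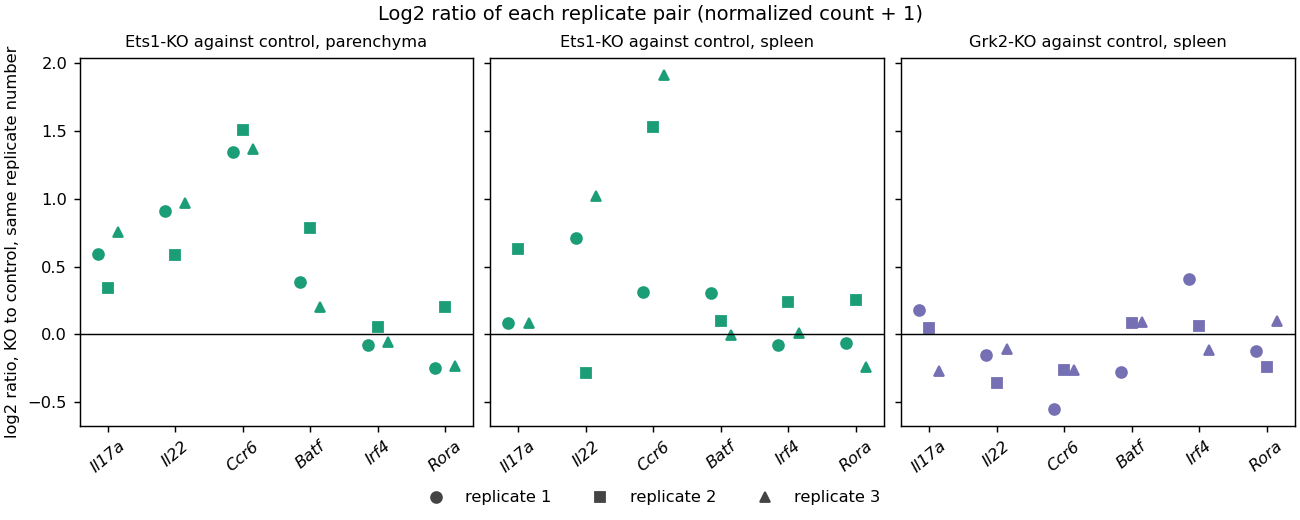
Log2 ratio of KO to control of each replicate pair, computed on normalized count + 1 (y axis), for the 6 tested Th17 programme genes (x axis) in the 3 comparisons (panels); each point is 1 pair and its shape the replicate number. The 3 pairs of *Ccr6* sit together between 1.34 and 1.501 in the parenchyma, spread from 0.31 to 1.91 in the spleen of the *Ets1* comparison and lie below 0 in the *Grk2* comparison.

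The remaining 3 members were near the limit of detection. *Il17f*, the relative of *Il17a* beside it on chromosome 9, had 2, 4 and 5 reads in control and 1, 2 and 1 reads in *Ets1*-KO libraries of the parenchyma. It had 0 reads in all 6 libraries of the *Ets1* comparison in the spleen, which allows up to 0.906 RPM (reads of the gene per 1000000 reads on genes) in the controls and 0.479 in the *Ets1*-KO cells (3 reads over the group, counting error only). In the *Grk2* table it had 4, 7 and 4 reads in control and 7, 2 and 1 reads in KO libraries. The rise of *Il17a* in the parenchyma was thus not accompanied by a measurable rise of *Il17f*, which was lower in each of the 3 KO libraries than in its pair at counts that allow no test.

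*Il23r*, whose product receives interleukin-23, had 7, 4 and 10 reads in control and 2, 4 and 7 reads in *Ets1*-KO libraries of the parenchyma. In the spleen it had 1, 5 and 1 reads in control and 1, 0 and 1 reads in *Ets1*-KO libraries, although the latter were deeper. In the *Grk2* table its libraries had between 1 and 6 reads. *Ahr*, which encodes a ligand-activated factor needed for much of the interleukin-22 made by Th17 cells, had at most 5 reads in any library. It had 0 reads in 4 of the 6 libraries of the parenchyma, where *Il22* was highest. For these 3 genes differences were not detectable at this depth.

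Control cells were also compared across the tables, in RPM. The tables were scaled separately, so that these levels are a description with no test, and tissue and isolation cannot be told apart. Parenchymal cells were purified on a Percoll gradient and splenic cells by lysis of red cells and CD4 enrichment, and both were then sorted by BFP or GFP. Markers of other cells also differed between the control groups: the myeloid markers had median sums of 43.9 normalized counts in the parenchyma, 7.53 in the *Ets1* spleen controls and 1.08 in the *Grk2* spleen controls, and *Klrd1* had means of 27.0, 34.7 and 156. Their part in the levels was not tested.

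Of the 6 tested members *Il17a* differed most between the control groups. It was at 230 ± 51.5 RPM in the parenchyma, 55.8 ± 2.83 in the spleen of the *Ets1* comparison and 12.7 ± 3.81 in the spleen of the *Grk2* comparison (SD, n = 3). No neighbours in this order overlapped, and the 2 splenic groups, which carry the same labels for tissue, strain and day, differed 4.39-fold. The parenchymal level was 4.11 and 18.04 times the splenic ones. Among all genes compared, 46.8% did not overlap between the parenchyma and the *Ets1* spleen controls, 61.8% between the parenchyma and the *Grk2* spleen controls and 59.5% between the splenic groups, so that non-overlap by itself is common here. Differences of more than 2-fold in either direction were seen in 14.3%, 22.6% and 23.9% of genes, in the same order.

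*Il22* was highest in the parenchyma, at 51.4 ± 11.7 RPM, and the splenic groups, at 17.0 ± 1.88 and 22.2 ± 6.11, overlapped. *Batf* followed the same order, with 118 ± 13.6 in the parenchyma and overlapping splenic levels of 64.6 ± 4.15 and 70.5 ± 7.36. For both genes the parenchyma was above each splenic group without overlap.

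*Ccr6* was at 107 ± 11.05 RPM in the parenchyma, 58.9 ± 3.03 in the *Grk2* spleen controls and 11.9 ± 4.54 in the *Ets1* spleen controls, with no overlap between neighbours. *Irf4* was at 146 ± 27.7 in the parenchyma and 151 ± 29.5 in the *Grk2* spleen controls, which overlapped, and at 26.8 ± 3.01 in the *Ets1* spleen controls. For these 2 genes the splenic groups differed 4.95-fold and 5.63-fold. Over all 6490 genes compared, 23.9% differed more than 2-fold in either direction between these groups. *Rora* was highest in the *Grk2* spleen controls, at 361 ± 36.1, above 218 ± 18.1 in the parenchyma and 205 ± 9.68 in the *Ets1* spleen controls, which overlapped.

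Of the members near the limit of detection, *Il17f* had 11 reads in the parenchymal controls, 15 in the *Grk2* spleen controls and 0 in the *Ets1* spleen controls. Set against 3 reads over the group with none, its level was 2.71-fold in the parenchyma and 4.52-fold in the *Grk2* spleen controls. These folds leave out the counting error of the 11 and 15 reads and are not lower limits. *Il23r* had 21, 9 and 7 reads in the parenchymal, *Grk2* and *Ets1* spleen controls, with overlapping levels. *Ahr* had 1, 6 and 7 reads in these groups.

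**Figure D4:**
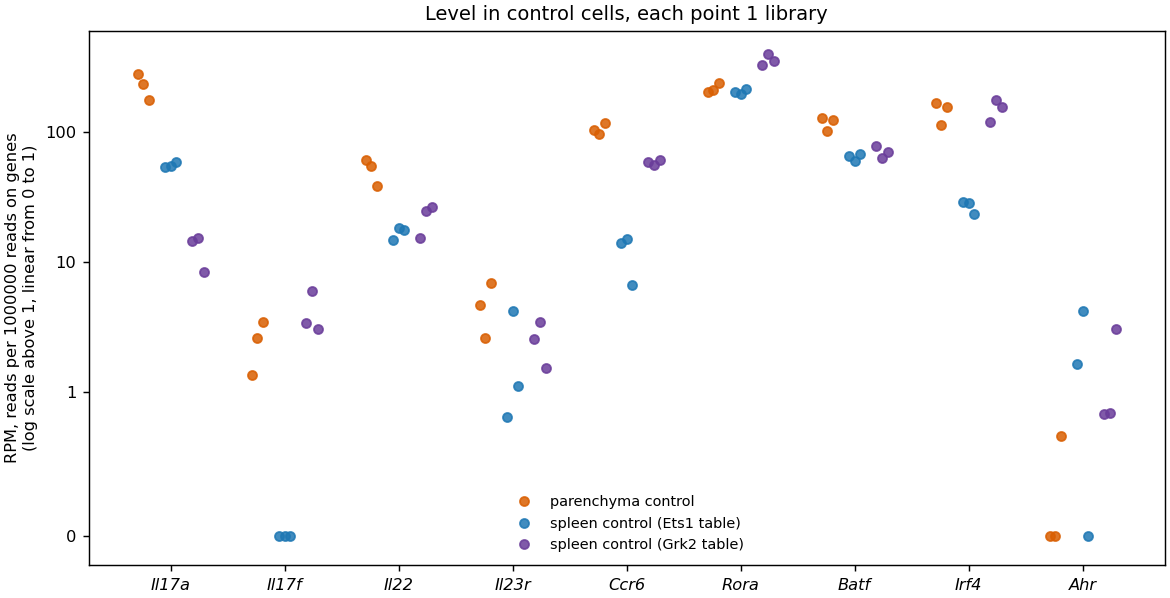
Level in control cells of all 9 members (x axis) in RPM, reads per 1000000 reads on genes (y axis, logarithmic above 1 and linear from 0 to 1); each point is 1 library, coloured by control group. *Il17a* falls from 230 in the parenchyma to 55.8 and 12.7 in the splenic groups, while *Ccr6* and *Irf4* differ between the splenic groups by 4.95-fold and 5.63-fold.

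Another 34 genes of the Th17 pathway, also chosen with earlier results of these data known, were taken in 4 roles. In the parenchyma 21 of them could be tested, 3 were higher in *Ets1*-KO cells and 0 lower, beside 2.27% of all tested genes that were higher, and their median log2 change was 0.13, against −0.03 over all genes. By role, these were 1 of 7 tested receptors and signalling genes, 0 of 6 transcription factors, 0 of 2 products and 2 of 6 factors that oppose the programme. In *Ets1*-KO cells of the spleen 2 of 19 were higher and 0 lower, both of them transcription factors, beside 1.02% of all genes that were higher, with a median of −0.05 against 0.00 over all genes. In *Grk2*-KO cells 0 of 19 were higher and 1 was lower, beside 1.56% of all genes called in either direction, with a median of −0.08 against 0.02 over all genes.

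*Il21r*, which encodes the receptor for interleukin-21, was at 153, 137 and 208 in control and 287, 221 and 237 in *Ets1*-KO libraries of the parenchyma, with no overlap and a log2 change of 0.59 (adjusted p = 1.81e-05 from limma). It failed without replicate 1 (adjusted p = 0.0534) and in DESeq2 (0.0563). *Il2ra*, which encodes the high-affinity chain of the interleukin-2 receptor, whose signal opposes Th17 differentiation through STAT5, rose there from 658 ± 17.3 to 1011 ± 46.6 (SD, n = 3; log2 change 0.62, adjusted p = 1.89e-12 from limma). *Tbx21*, the T-bet gene of Th1 cells, rose from 548 ± 10.2 to 697 ± 37.6 (log2 change 0.35, adjusted p = 0.00169 from limma), a call lost without replicate 2 (adjusted p = 0.107). Without the variance trend none of these genes passed, with adjusted p values of 0.324 (*Il21r*), 0.249 (*Il2ra*) and 0.372 (*Tbx21*) from limma. So the pathway genes that rose with *Il17a* in the parenchyma included 2 from the list of opposing factors.

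*Junb*, which encodes a partner of BATF, and *Maf*, which encodes an activator of *Il21*, were the 2 called in *Ets1*-KO cells of the spleen. *Junb* was at 175, 175 and 118 in control and at 265, 216 and 225 in KO libraries (log2 change 0.61, adjusted p = 0.0172 from limma). *Maf* was at 99.5, 118 and 109.7 in control and at 154, 140.2 and 196 in KO libraries (log2 change 0.57, adjusted p = 0.0422 from limma). Neither group overlapped, but without the replicate block the adjusted p values were 0.0719 and 0.0962, and without replicate 1 they were 0.461 and 0.594, and without replicate 3 they were 0.0806 and 0.157. DESeq2 gave adjusted p values of 0.207 and 0.459, and limma without the variance trend gave 0.349 and 0.359. In the parenchyma both had log2 changes of 0.26 and 0.28 that did not pass, with adjusted p values of 0.160 and 0.0540 from limma.

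In *Grk2*-KO cells *Il2ra* fell from 265 ± 50.1 to 199 ± 40.6 (SD, n = 3), and its log2 change was −0.42 (adjusted p = 0.00512 from limma). It was lower in all 3 pairs although the groups overlapped. Without the replicate block the adjusted p was 0.327, without replicate 1 it was 0.151, without replicate 2 it was 0.480, and DESeq2 gave 0.999. Without the variance trend limma gave an adjusted p of 0.535.

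Finally, the genes most like each tested member were listed from 6206 genes over the 18 libraries, each centred on the mean of its table. The closest to *Ccr6* were *Prdx2* (Pearson's r = 0.893) and *Zbtb24* (0.807), and those closest to *Il17a* were *Phpt1* (0.767) and *Nedd9* (0.762). *Il22* was most like *Mios* (0.863) and *Ttc39c* (0.789). Of the transcription factors, *Batf* was closest to *Usp10* (0.806) and *Il21r* (0.791), *Irf4* to *Ift46* (0.810) and *Ubxn4* (0.793), and *Rora* to *Rsbn1l* (0.853) and *Sfswap* (0.817). These are the highest values among the 6206 genes, over libraries that share their groups, and are given as a description. No member was among the 2 genes most like another member.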

How the data were processed

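RNA of T-MBP cells was sequenced as 3′ mRNA in 18 libraries. According to the methods and labels, the authors aligned reads to Rnor_6.0 with STAR 2.7.2b, counted them with HTSeq 1.0.0 and divided them by DESeq2 size factors (version 2.11.40.7, poscounts); the deposited signal values are these normalized counts, in 3 tables scaled separately. Every positive value (100%) was a whole number of reads times 1 factor per library (tolerance 0.01). The authors' own comparisons, fold changes and p values were not used. Nor were 8 columns of control and ETS1-KO human CD4+ T cells, which matched no sample.

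Genes with a mean of at least 10 were tested with limma 3.58.1 (lmFit, eBayes with trend) on log2(normalized count + 1), two-sided, blocked by replicate number, with p values adjusted after Benjamini and Hochberg over all genes tested (threshold 0.05). The block follows the study's correction per animal; the labels do not state which libraries share an animal. edgeR 4.0.16 and DESeq2 1.42.0 on the recovered reads, other scalings, pseudocounts, count minimums and left-out replicates were alternatives. The script was tested on simulated data. The 9 members, the pathway list and the markers were chosen with earlier results of these data known. The genes named are the members, the edited genes, pathway genes called in at least 1 KO comparison and the 2 genes most like each tested member. The limma p values rest mainly on variances shared across genes by the trend (prior degrees of freedom infinite in the parenchyma, 22 and 141 in the *Ets1* and *Grk2* spleen tables) and cover the spread between libraries, which may be technical.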

Additional observations from a re-analysis of the deposited data

Results flagged for a closer look

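The results below concern effects that differed between tissues or between edits. Each edit had its own controls, so that an edit cannot be told apart from other differences between the 2 comparisons. The difference of the *Ets1* effect on *Il2ra*, parenchyma minus spleen, was 0.719 on the log2 scale (standard error 0.143, adjusted p = 0.00347 from limma), with all 3 pairs above 0 in the parenchyma and below 0 in the spleen. It failed without replicate 1 (adjusted p = 0.1005) and without the variance trend (0.225). For *Ccr6* in the spleen the *Ets1* effect exceeded the *Grk2* effect by 1.61 (standard error 0.343, adjusted p = 0.00696 from limma), with the pairs of the 2 edits on opposite sides of 0. The same difference was 0.693 for *Junb* (standard error 0.170, adjusted p = 0.0217 from limma), and this call held in 7 of 12 alternatives. It failed without the replicate block (adjusted p = 0.164), without the trend (0.312) and without replicate 1 (0.163), 2 (0.108) or 3 (0.320), where the difference was 0.478. *Maf* and *Il21r* are listed only because all 3 pairs were above 0 in *Ets1*-KO and below 0 in *Grk2*-KO cells of the spleen. This was the rule for listing them and not a test, and the share of all genes that meet it was not computed. Their differences of 0.721 and 0.397 did not pass the test (adjusted p = 0.0796 and 0.414 from limma).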

How the results depend on the processing

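In the parenchyma 4 members were called, and 3 to 4 with each replicate left out, 3 in DESeq2, 0 without the variance trend and 4 under each other alternative. In the spleen the single call of *Ets1*-KO cells (*Ccr6*) became 0 without the replicate block, with a count minimum of 50 (which leaves *Ccr6* out), without the trend, in DESeq2 and with each replicate left out (0 to 0). For the *Ets1* against the *Grk2* effect the single call became 0 with the minimum of 50 and without the trend and was 0 to 1 with replicates left out; the cause of these losses was not tested except for the minimum. The *Grk2* comparison and the tissue difference gave 0 under every alternative run. The edgeR test of the differences was added after seeing the data.

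Same-numbered libraries correlated in their deviations from the group means by −0.00299 to 0.175, so that the numbers are not shown to pair the libraries; every library correlated best with its own number except in the parenchyma (replicate 3) and the *Grk2* table (replicate 2). Without the replicate block 200 genes were called in place of 366 in the parenchyma, 71 in place of 155 in the spleen and 19 in place of 109 for *Grk2*; among members the block changed the call of splenic *Ccr6* and no other. Without the trend 3, 0 and 0 genes were called, and DESeq2 called 80, 37 and 10. With replicates left out the counts were 165 to 278, 3 to 241 and 9 to 48. Of the called genes, the share higher in KO cells was 43.4% in the parenchyma, 52.7% there with quantile normalization, 54.8% in edgeR and 70.0% in DESeq2; it moved from 45.8% to 56.8% (spleen, *Ets1*) and from 37.3% to 49.3% (the 2 edits) with upper quartile scaling, and from 59.6% to 45.3% (*Grk2*) with quantile normalization.

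Of 366 alternative values of single members 338 kept direction and call, 15 lost the call and 13 changed sign, all 13 from changes of at most 0.17. With replicates left out the ranges of these were −0.15 to 0.09 (*Rora*) and −0.03 to 0.12 (*Irf4*) for *Ets1* in the spleen, −0.11 to 0.11 (*Il17a*), −0.10 to 0.09 (*Batf*) and −0.03 to 0.23 (*Irf4*) for *Grk2*, −0.29 to 0.50 for the tissue difference of *Ccr6*, and −0.14 to 0.27 (*Rora*), −0.04 to 0.30 (*Batf*) and −0.18 to 0.15 (*Irf4*) between the edits. *Rora* in the spleen also turned to 0.01 with upper quartile scaling, *Il17a* for *Grk2* to 0.01 in edgeR and *Irf4* between the edits to 0.00105 in edgeR. The log2 level of *Irf4* in parenchymal over *Grk2* spleen controls, −0.05, was 0.07 with the deposited normalized counts, 0.06 with TMM and −0.31 to 0.23 with replicates left out. Depth limits *Il17f*, *Il23r* and *Ahr*, with at most 10 reads in any library.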
